A study of Homo sapiens with 9 samples.

Results

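The insulin-like growth factor (IGF) system was followed in SNU-398 cells through 10 genes: the 7 binding proteins IGFBP1 to IGFBP7, the receptors IGF1R and INSR, and the receptor substrate IRS1. They were taken by a list of gene names from the 60642 gene names of the deposited tables. SNU-398 is a hepatocellular carcinoma (HCC) cell line of mesenchymal-like type. All cells were stably transduced with lentivirus and selected with puromycin, and 3 groups of 3 RNA-seq libraries each were compared: the vector control, labelled as overexpression control with a wild type genotype, EMX1-FL overexpression, which carries the full-length isoform of the homeobox protein EMX1, and EMX1-X1 overexpression, which carries the isoform with an alternative C-terminal end. The controls therefore shared the cell line, the transduction and the drug selection with both overexpression groups. The labels number the libraries of a group from 1 to 3 without saying that they came from separate cultures, so the p-values measure the spread between these libraries, which may be technical.

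As background, IGF1 and IGF2 signal through the IGF1 receptor, insulin and IGF2 also act through the insulin receptor, and both receptors are tyrosine kinases that phosphorylate IRS proteins, which recruit PI3-kinase and so engage AKT. The binding proteins are secreted, hold IGFs in the extracellular fluid, and can limit or prolong the access of IGFs to the receptors, and IGFBP7 binds IGFs weakly. The liver is the main source of circulating IGF1 and of several binding proteins.

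Libraries held 21562703 to 25197970 counted read pairs, and EMX1 itself was at 6.34 to 7.69 TPM (transcripts per length, scaled to a common total) in the vector control and at 91.6 to 205 TPM in the 6 overexpression libraries. Of the 10 hepatocyte markers examined, 2 were at 0 in every library, AFP among them, 8 stayed under 1 TPM in every library, and none reached 1 TPM in every library, with a summed level of 0.82 to 1.25 TPM in the vector control, 2.16 to 3.50 TPM with EMX1-FL and 1.34 to 2.68 TPM with EMX1-X1. VIM, the intermediate filament of mesenchymal cells, was at 703 to 1116 TPM, while HNF4A, a transcription factor that defines hepatocytes, was at 0 to 0.02 TPM and ALB, the serum albumin, was at 0.45 to 2.77 TPM. The libraries also fell into 2 clusters along the first principal component, which held 39.6% of the variance. Cluster A held vector control 1 and 2, EMX1-FL 2 and 3 and EMX1-X1 1, and cluster B held the other 4 libraries. The clusters were read from the counts, have no label, and cut across the groups, and the values within each are given where they bear on a member. Cluster B has 1 library each of the vector control and EMX1-FL, and cluster A has 1 of EMX1-X1. Differences within a cluster that involve these rest on single libraries.

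IGFBP3 and IGFBP7 were the members that were higher at an unadjusted p under 0.05 with both isoforms. IGFBP3 rose 3.43-fold with EMX1-FL and 2.17-fold with EMX1-X1, from a level near the bottom of the set. IGFBP7 was 1.87-fold and 1.79-fold higher, with no overlap between the groups in either comparison. The other binding proteins, both receptors and IRS1 did not pass an unadjusted p of 0.05 against the vector control. None of the members passed an adjusted p of 0.05 in any of the 3 comparisons (quasi-likelihood F test of edgeR, Benjamini-Hochberg adjusted over the 18574 genes tested). With EMX1-FL against EMX1-X1, IGFBP4 and INSR had an unadjusted p under 0.05, both lower with EMX1-FL, and neither reached the fold change threshold.

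**Figure D1:**
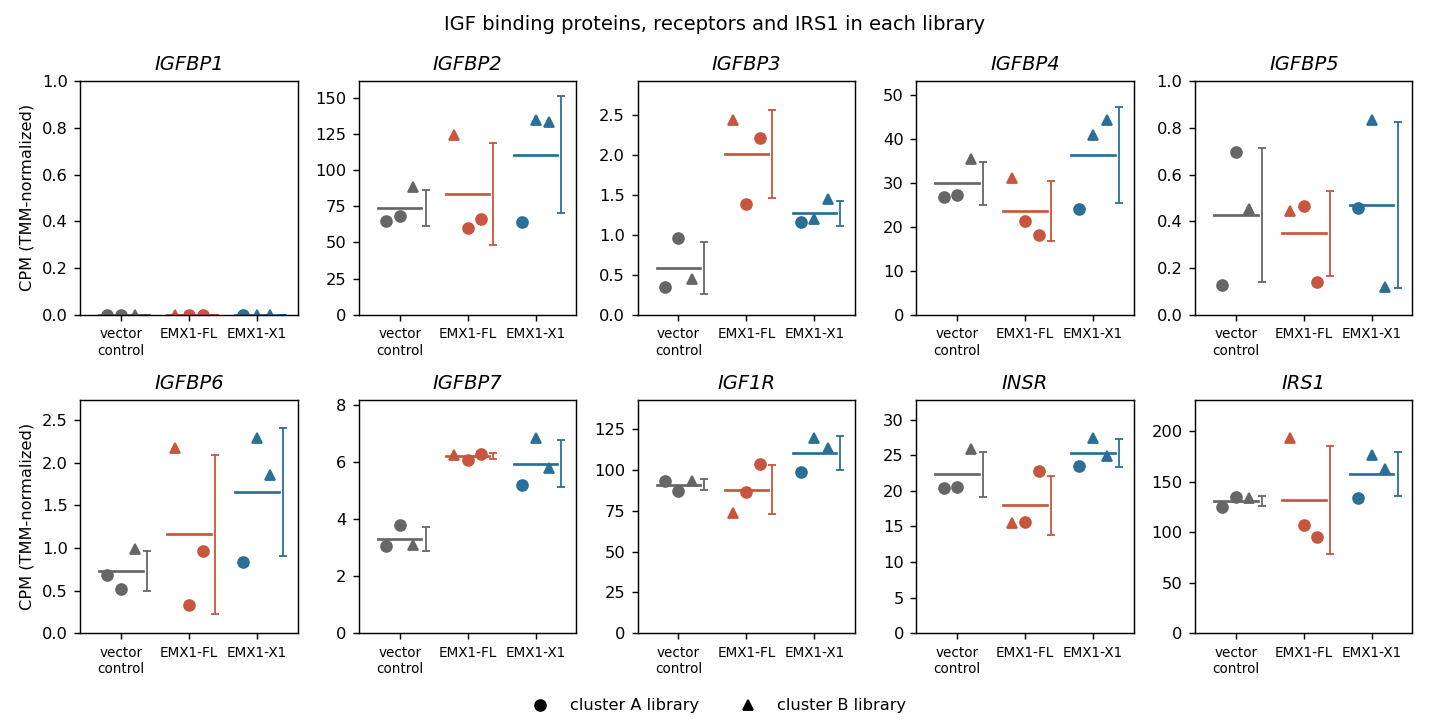
CPM (TMM-normalized, y axis from 0) of the 10 members in each of the 9 libraries, with circles for cluster A, triangles for cluster B, lines for group means and bars for the SD (n = 3). IGFBP7 and IGFBP3 sit higher in all 6 overexpression libraries than in the 3 vector control libraries, IGFBP1 is at 0 throughout, and in IGFBP2, IGFBP4 and IGFBP6 every triangle lies above every circle.

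IGFBP3, the main IGF carrier of serum, lies on chromosome 7 (GRCh38, 45912245 to 45921874, minus strand), and none of its exon bases overlap another gene. It had 8, 22 and 11 counts in vector control 1, 2 and 3, 55, 33 and 48 counts in the EMX1-FL libraries, and 28, 29 and 36 counts in the EMX1-X1 libraries. In CPM, which is counts per 1000000 counted read pairs, it was at 0.34, 0.96 and 0.45 in the vector control, at 2.44, 1.39 and 2.22 with EMX1-FL and at 1.17, 1.21 and 1.45 with EMX1-X1. In libraries of bulk RNA a larger share of cells with a transcript and more of it per cell cannot be told apart. All 6 overexpression libraries were above all 3 vector control libraries, and the lowest EMX1-FL library lay below the highest EMX1-X1 library. The log2 fold change was 1.78 (SE 0.43, 95% confidence interval 0.83 to 2.72) with EMX1-FL, with an unadjusted p of 0.00155 and an adjusted p of 0.223 by edgeR. With EMX1-X1 it was 1.12 (SE 0.44, 95% confidence interval 0.16 to 2.08), with an unadjusted p of 0.0254 and an adjusted p of 0.575 by edgeR. The exact permutation test gave p = 0.1 in both comparisons, the smallest that 3 libraries against 3 allow. The EMX1-FL and EMX1-X1 libraries differed by 0.66 in log2 (95% confidence interval -0.23 to 1.55, edgeR unadjusted p 0.133), an interval that holds 0. Within cluster A the mean log2 CPM of EMX1-FL exceeded that of the vector control by 1.46 and that of EMX1-X1 exceeded it by 0.90, and within cluster B the differences were 2.23 and 1.39. The cluster B differences share vector control 3 as their single control library, with 1 EMX1-FL and 2 EMX1-X1 libraries. The 0.90 rests on 1 EMX1-X1 library.

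IGFBP3 was the member called as a DEG in each comparison with the vector control, where a DEG is a gene that changed at least 2-fold (1 on the log2 scale) in either direction at an unadjusted p under 0.05. With EMX1-FL 1 of the 9 members tested was called, beside 450 of all genes tested (2.42%), and with EMX1-X1 1 of 9, beside 464 (2.5%). With the p adjusted and the fold kept, 13 of the genes tested (0.07%) were called with EMX1-FL and 1 (0.00538%) with EMX1-X1, and 0 of the members. The overexpressed EMX1 was among the 13 and was the 1 gene with EMX1-X1. Members at an unadjusted p under 0.05 numbered 2 in each of these comparisons. By DESeq2 the adjusted p was 0.0183 for IGFBP3 and 0.0233 for IGFBP7 with EMX1-FL, and 0.397 and 0.0846 with EMX1-X1, so that IGFBP3 passed the adjusted threshold with the fold change in that tool with EMX1-FL. Over the alternative fits the adjusted p of IGFBP3 ran from 0.0183 to 0.801 with EMX1-FL and from 0.262 to 1.00 with EMX1-X1. The EMX1-X1 call rested on single libraries. The log2 fold change of IGFBP3 was 0.84 (edgeR unadjusted p 0.0964) without vector control 1, 0.95 (edgeR unadjusted p 0.0793) without vector control 3 and 1.00 (edgeR unadjusted p 0.0706) without EMX1-X1 3.

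IGFBP7, a secreted glycoprotein of the extracellular matrix, had the smallest unadjusted p of the members. It lies on chromosome 4 (57030773 to 57110385, minus strand), and it shares 18.3% of its exon sequence with the antisense gene IGFBP7-AS1 and with POLR2B, where the counting program by default left out read pairs that fell on more than 1 gene. IGFBP7-AS1 itself had 0 to 4 counts per library. IGFBP7 stood at 3.04, 3.80 and 3.09 CPM in the vector control, at 6.25, 6.07 and 6.28 CPM with EMX1-FL and at 5.20, 6.82 and 5.78 CPM with EMX1-X1, from 71 to 164 counts per library. The 6 overexpression libraries were all higher than the vector control libraries, and the 3 EMX1-FL libraries lay within the range of the EMX1-X1 libraries. Its log2 fold change was 0.91 (SE 0.21, 95% confidence interval 0.44 to 1.37) with EMX1-FL, with an unadjusted p of 0.00120 and an adjusted p of 0.216, rank 102 by p among the genes tested by edgeR. With EMX1-X1 it was 0.84 (SE 0.21, 95% confidence interval 0.38 to 1.31), with an unadjusted p of 0.00202 and an adjusted p of 0.421, rank 89. Both changes stayed below the fold change threshold, so IGFBP7 was not called. Over the 22 alternative fits its adjusted p ran from 0.0233 to 0.801 with EMX1-FL, with 4 fits under 0.05, and from 0.0846 to 1.00 with EMX1-X1. Between the isoforms it differed by 0.06 in log2, with a 95% confidence interval from -0.39 to 0.52. In cluster A alone IGFBP7 was higher by 0.85 with EMX1-FL and by 0.60 with EMX1-X1 in mean log2 CPM, and in cluster B alone both differences were 1.00. Both cluster B differences were taken from vector control 3 alone, with 1 EMX1-FL and 2 EMX1-X1 libraries. The 0.60 rests on 1 EMX1-X1 library.

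At an unadjusted p under 0.05 without the fold change threshold, IGFBP3 and IGFBP7 were the 2 of 9 members with EMX1-FL, beside 5.8% of all genes tested, and the 2 of 9 with EMX1-X1, beside 8.11%. The groups did not overlap for 2 of 9 members with EMX1-FL, again IGFBP3 and IGFBP7, beside 10.5% of all genes tested. With EMX1-X1 they did not overlap for 3 of 9 members, IGFBP3, IGFBP7 and IGF1R, beside 14.7%. The comparisons with EMX1-FL and with EMX1-X1 share the 3 vector control libraries, so their values for the members are not independent of each other.

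**Figure D2:**
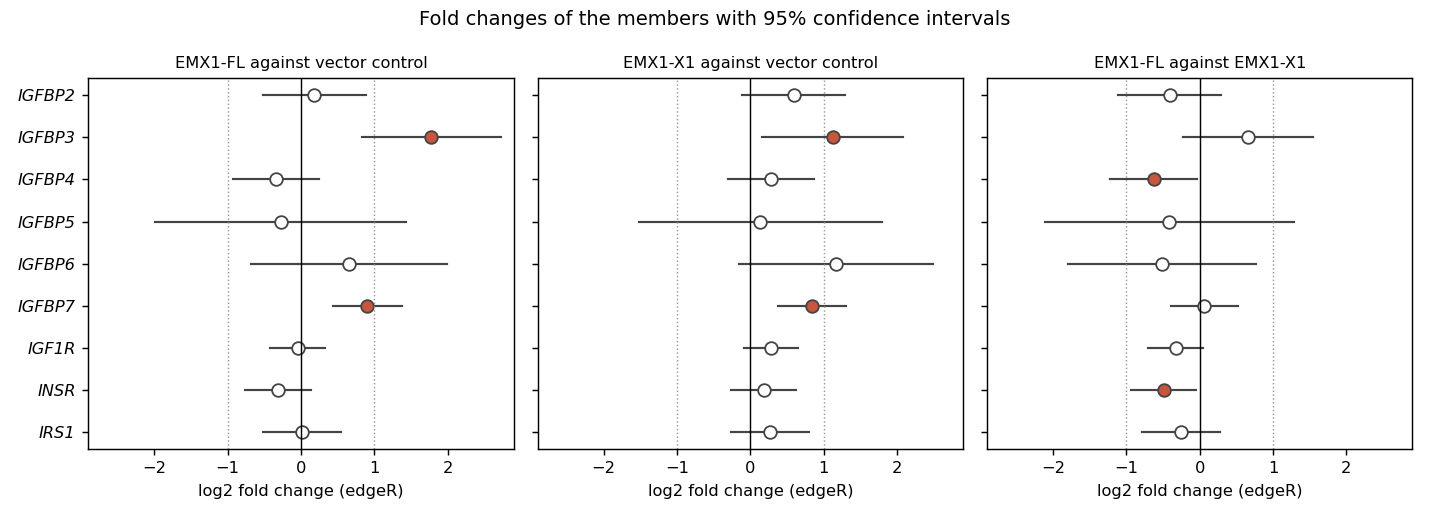
Log2 fold changes (edgeR, x axis) of the 9 members tested in the 3 comparisons, with lines for the 95% confidence interval, filled points for an unadjusted p under 0.05 and dotted lines at the fold change threshold of 1. IGFBP3 (1.78 and 1.12) and IGFBP7 (0.91 and 0.84) have intervals above 0 with both isoforms, and INSR (-0.49) and IGFBP4 (-0.63) have intervals below 0 with EMX1-FL against EMX1-X1.

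The 5 genes whose log2 CPM over the 9 libraries was most like that of IGFBP7, among the other 18573 genes tested, were ITGBL1 (Pearson's r = 0.992), NR2F2-AS1 (0.964), ALKAL1 (0.960), MPP4 (0.960) and SLC35D3 (0.958). These are descriptions over libraries that share groups and depth. Their mean levels were low, from 0.11 CPM for MPP4 to 5.53 CPM for SLC35D3 in the vector control. Each was higher with both isoforms, as for SLC35D3 with 12.3 CPM with EMX1-FL and 11.1 CPM with EMX1-X1. That direction was fixed by choosing them for their likeness to IGFBP7 and is not a separate result. IGFBP3 had an r of 0.894 with IGFBP7, at rank 60.

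IGFBP2, IGFBP4 and IGFBP6 varied with the cluster of the library. IGFBP2, an abundant carrier of fetal and tumour tissue, was at 64.6, 68.3 and 87.9 CPM in the vector control, at 123.9, 59.6 and 66.4 CPM with EMX1-FL and at 64.4, 134.5 and 133.2 CPM with EMX1-X1. The high libraries were vector control 3, EMX1-FL 1 and EMX1-X1 2 and 3, which are the cluster B libraries, and the groups overlapped. IGFBP2 had a log2 fold change of 0.18 (SE 0.32) with EMX1-FL (edgeR unadjusted p 0.588) and 0.59 (SE 0.32) with EMX1-X1 (edgeR unadjusted p 0.0933), and the difference from the vector control in mean log2 CPM was -0.08 and -0.04 within cluster A and 0.49 and 0.61 within cluster B. With a GC offset the log2 fold change was 0.11 with EMX1-FL and 0.22 with EMX1-X1.

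IGFBP4, a binding protein that is cleaved by the protease PAPPA, was at 26.8, 27.1 and 35.5 CPM in the vector control, at 31.1, 21.4 and 18.0 CPM with EMX1-FL and at 23.9, 40.9 and 44.2 CPM with EMX1-X1. Again the highest library of each group was of cluster B. Against the vector control it differed by -0.34 (SE 0.27) in log2 with EMX1-FL and 0.29 (SE 0.27) with EMX1-X1, neither with an unadjusted p under 0.05. The EMX1-FL value passed that p with a GC offset (-0.38, edgeR unadjusted p 0.00984), with the cluster as a term (-0.37, edgeR unadjusted p 0.0136), with cluster A libraries only (-0.45, edgeR unadjusted p 0.00488) and without EMX1-FL 1 (-0.60, edgeR unadjusted p 0.0331), and the EMX1-X1 value turned to -0.15 with the GC offset. IGFBP4 had a log2 fold change of -0.63 (95% confidence interval -1.22 to -0.04) with EMX1-FL against EMX1-X1, with an unadjusted p of 0.0391 and an adjusted p of 0.611 by edgeR, and the libraries of the 2 groups overlapped. With a GC offset the difference was -0.23 (edgeR unadjusted p 0.0893), and within clusters A and B it was -0.28 and -0.45 in mean log2 CPM.

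IGFBP6, which prefers IGF2 to IGF1, was at 0.69, 0.52 and 0.99 CPM in the vector control, at 2.17, 0.34 and 0.97 CPM with EMX1-FL and at 0.83, 2.29 and 1.86 CPM with EMX1-X1, from 8 to 55 counts. EMX1-FL 1 held more than the other EMX1-FL libraries, and EMX1-X1 2 and 3 more than EMX1-X1 1. Its log2 fold change of 1.17 with EMX1-X1 had an SE of 0.60 (edgeR unadjusted p 0.0772), and with EMX1-FL it was 0.65 with an SE of 0.61. The latter rested on EMX1-FL 1, and was -0.18 without it. With a GC offset the log2 fold change of IGFBP6 was 0.69 with EMX1-X1 and 0.48 with EMX1-FL. IGFBP6 passed the DEG threshold with EMX1-X1 when EMX1-FL 1, EMX1-FL 2 or EMX1-X1 1 was left out (log2 fold change 1.16, 1.15 and 1.47, edgeR unadjusted p 0.0361, 0.0365 and 0.0335), and with EMX1-FL against EMX1-X1 when EMX1-FL 1 was left out (-1.34, edgeR unadjusted p 0.0375).

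For these 3 binding proteins each of the 4 cluster B libraries was above each of the 5 cluster A libraries, beside 16% of all genes tested (2972 of 18574). A further 3176 genes tested, and 0 members, had every cluster B library below every cluster A library. The clusters were cut from these same counts, so part of this separation was built in. The ranges were 59.6 to 68.3 against 87.9 to 134.5 CPM for IGFBP2, 18.0 to 27.1 against 31.1 to 44.2 CPM for IGFBP4, and 0.34 to 0.97 against 0.99 to 2.29 CPM for IGFBP6. Their transcripts had the highest GC contents of the members, at 59.8% for IGFBP2, 62.5% for IGFBP4 and 63.0% for IGFBP6, while the other members were between 50.3% and 54.0% and the genes tested had a median of 48.9%. The mean difference of cluster B from cluster A within groups was 0.81, 0.63 and 1.21 in log2 for these 3 genes. For IRS1, at 50.7% GC, it was 0.44. The median over all genes rose with GC content, from -0.65 in the lowest of 10 bins of genes by GC to 0.65 in the highest. EMX1, with a GC content of 62.8%, moved with the clusters too. It was at 91.6 to 103 TPM in the cluster A overexpression libraries and 168 to 205 TPM in those of cluster B. The part of EMX1 level in the values of IGFBP2, IGFBP4 and IGFBP6 was not tested. For IGFBP3 and IGFBP7 this mean difference was 0.10 and 0.05 in log2 CPM. It is a signed mean over the groups, in which differences of opposite direction cancel. The part of the clusters in the values of IGFBP3 and IGFBP7 was not tested by it. With the cluster as a term the log2 fold change of IGFBP3 was 1.77 with EMX1-FL and 1.08 with EMX1-X1. That of IGFBP7 was 0.90 and 0.82. Under the GC offset these values were 1.77 and 1.00 for IGFBP3 and 0.90 and 0.79 for IGFBP7.

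**Figure D3:**
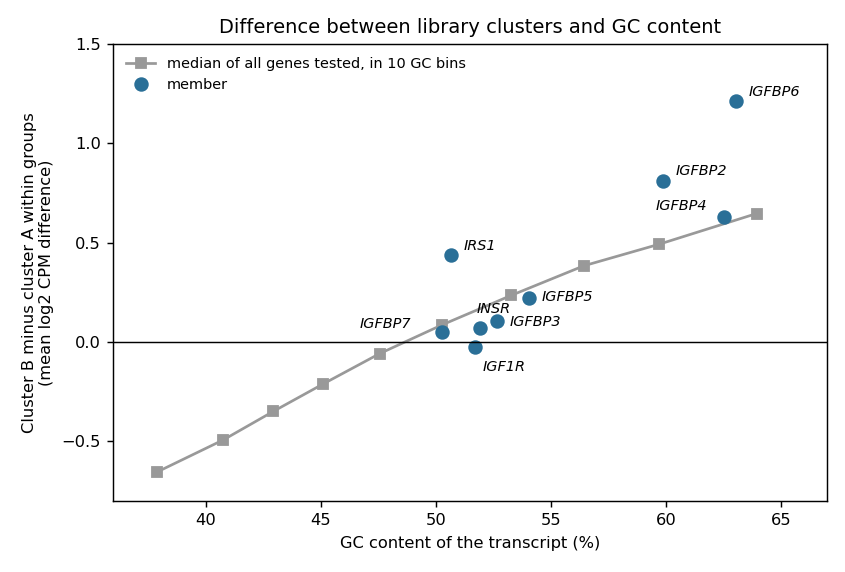
Mean log2 CPM difference of cluster B from cluster A within groups (y axis) against the GC content of the gene's transcripts in percent (x axis), for the 9 members tested (points) and as medians of all genes tested in 10 bins by GC content (squares). IGFBP2, IGFBP4 and IGFBP6 lie at 59.8% to 63.0% GC with differences of 0.63 to 1.21. IRS1 lies at 50.7% GC with a difference of 0.44, and IGFBP3 and IGFBP7 lie near 0.

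IGFBP5 and IGFBP1 were at or near the limit of detection. IGFBP5, which binds the extracellular matrix, had 3 to 20 counts per library, at 0.13, 0.70 and 0.45 CPM in the vector control, 0.44, 0.46 and 0.14 CPM with EMX1-FL and 0.46, 0.83 and 0.12 CPM with EMX1-X1. Its log2 fold changes of -0.28 and 0.14 had SEs of 0.78 and 0.76, and the 95% confidence intervals, from -1.99 to 1.43 and from -1.52 to 1.80, held a 2-fold change in either direction. IGFBP1, the insulin-repressed binding protein of hepatocytes, had 0 counts in all 9 libraries and was not tested. A count of 0 allows up to 3 counts, or 0.12 to 0.14 CPM per library, where the limit covers counting error only. None of its exon bases are shared with another gene. IGFBP1 and IGFBP3 are neighbours on chromosome 7, on opposite strands with 18584 bases between them, and IGFBP2 and IGFBP5 are neighbours on chromosome 2, also on opposite strands with 7668 bases between them. The neighbours IGFBP2 and IGFBP5 were far apart in level, at 46.8 to 108 TPM and at 0.07 to 0.49 TPM.

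To show the start regions of IGFBP3, the member called, and of IGFBP2 and IGFBP4, the most abundant binding proteins, the 150 bases before each gene start in RefSeq (GRCh38.p14) are printed from 5′ to 3′ on the strand of the gene, at chr7:45921273-45921422 (minus strand), chr2:216633270-216633419 (plus strand, 1 of 3 starts listed for IGFBP2) and chr17:40443300-40443449 (plus strand). The windows of IGFBP3 and IGFBP2 lie inside the bounds of these genes in the count table, whose annotation also lists an exon further upstream. Capitals mark the TATA motifs, which are TATAAA in IGFBP4 and TATATA in IGFBP3, and the GC box core GGGCGG, which reads CCGCCC where it lies on the other strand.
IGFBP3: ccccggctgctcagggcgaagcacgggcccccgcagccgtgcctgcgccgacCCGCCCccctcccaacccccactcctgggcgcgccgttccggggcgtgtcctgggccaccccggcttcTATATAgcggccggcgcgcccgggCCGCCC
IGFBP2: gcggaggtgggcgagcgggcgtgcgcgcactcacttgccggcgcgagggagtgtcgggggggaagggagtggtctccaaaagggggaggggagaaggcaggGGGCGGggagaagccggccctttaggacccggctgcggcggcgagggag
IGFBP4: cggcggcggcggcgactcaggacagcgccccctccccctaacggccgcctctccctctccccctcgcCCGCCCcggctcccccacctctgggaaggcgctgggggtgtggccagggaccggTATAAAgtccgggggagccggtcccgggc
RefSeq starts were at hand for 8 of the 10 members. IGFBP3 held TATATA 30 bases before its start, a motif that 2.19% of the 35116 promoters held on either strand in the same window, and IGFBP4 held TATAAA 29 bases before its start, as 6.71% did in this window. GGGCGG was in all 3 windows printed and in 36.8% of all promoters. TAAT, the core letters that many homeodomains bind, was found on neither strand in these 3 windows, while 33.1% of all promoters held it. IGFBP2 held it in the window of another start, where it was read as ATTA. The windows printed held 80% GC for IGFBP3, 74% for IGFBP2 and 77.3% for IGFBP4, beside a median of 60% over all promoters. The shares over all promoters are therefore not shares at a like GC content. All these hits are matches of letters and say nothing about binding.

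IGF1R, INSR and IRS1 were called in none of the 3 comparisons. IGF1R was at 93.0, 87.0 and 92.9 CPM in the vector control, at 73.9, 86.7 and 103.4 CPM with EMX1-FL and at 98.8, 119.2 and 113.1 CPM with EMX1-X1. The EMX1-X1 libraries were all above the vector control libraries, while EMX1-FL libraries lay on both sides of them. IGF1R had a log2 fold change of 0.28 with EMX1-X1 (95% confidence interval -0.09 to 0.65, edgeR unadjusted p 0.127) and -0.05 with EMX1-FL (95% confidence interval -0.42 to 0.32). With EMX1-FL against EMX1-X1 it was -0.33 (edgeR unadjusted p 0.0786).

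INSR was at 20.4, 20.6 and 25.9 CPM in the vector control, at 15.5, 15.6 and 22.7 CPM with EMX1-FL and at 23.5, 27.3 and 25.0 CPM with EMX1-X1. The 3 EMX1-FL libraries were all below the 3 EMX1-X1 libraries, and EMX1-FL 3 was close to them. The log2 fold change of INSR with EMX1-FL against EMX1-X1 was -0.49 (SE 0.20, 95% confidence interval -0.94 to -0.05), with an unadjusted p of 0.0330 and an adjusted p of 0.611 by edgeR. Within cluster A it was -0.32 and within cluster B -0.75 in mean log2 CPM. Against the vector control INSR differed by -0.31 with EMX1-FL and by 0.18 with EMX1-X1, and both intervals held 0. IGFBP4 and INSR were the 2 of 9 members with an unadjusted p under 0.05 between the isoforms, beside 7.63% of all genes tested. INSR was the 1 member of 9 without overlap, beside 8.38%, and 0 members were called, beside 1.42% at the unadjusted p with the fold change threshold and 0% at the adjusted p with that threshold. IGFBP4 lost its unadjusted p under 0.05 without EMX1-FL 2 or 3 or EMX1-X1 2 or 3 (edgeR unadjusted p 0.0902, 0.138, 0.115 and 0.141), and INSR without EMX1-FL 1 or 2 or EMX1-X1 2 or 3 (edgeR unadjusted p 0.0801, 0.116, 0.103 and 0.0654). When the 6 libraries of these groups were fitted alone, the edgeR unadjusted p was 0.0649 for IGFBP4 and 0.0610 for INSR, and with a GC offset that of INSR was 0.0567.

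IRS1, the docking protein of both receptors, was at 125.4, 134.8 and 133.7 CPM in the vector control, at 193.0, 107.5 and 95.7 CPM with EMX1-FL and at 133.9, 176.4 and 163.1 CPM with EMX1-X1. EMX1-FL 1, of cluster B, was above every other library, and EMX1-FL 2 and 3, of cluster A, were below every other library. Its log2 fold change with EMX1-FL was 0.01 (SE 0.24) over all libraries and -0.37 (edgeR unadjusted p 0.0401) without EMX1-FL 1. With EMX1-X1 it was 0.27 (SE 0.24, edgeR unadjusted p 0.296).

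On the scale per length, the order of the members by mean TPM in the vector control was IGFBP2 at 54.1 ± 5.51 (SD, n = 3), IGFBP4 at 47.2 ± 4.63, IRS1 at 46.3 ± 2.30, IGF1R at 22.9 ± 1.62, INSR at 7.19 ± 0.54, IGFBP7 at 6.03 ± 0.91, IGFBP6 at 1.89 ± 0.50, IGFBP3 at 0.45 ± 0.26, IGFBP5 at 0.23 ± 0.16 and IGFBP1 at 0. Between neighbours in this order the vector control libraries overlapped for IGFBP2 and IGFBP4, for IGFBP4 and IRS1, for INSR and IGFBP7 and for IGFBP3 and IGFBP5, and were apart for the others. IGFBP2 was above IGFBP4 in each of the 9 libraries, and the ratio was 1.12 to 1.85. IGF1R was above INSR in each library, 2.78 to 4.32 times in TPM. INSR was above IGFBP7 in 2 of the 9 libraries, vector control 1 and 3, and IGFBP7 was above INSR in all 6 overexpression libraries. IGFBP3 went from 0.28 to 0.75 TPM in the vector control to 0.96 to 1.96 TPM in the overexpression libraries and IGFBP7 was 6.07 to 21.0 times above it in each library.

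The ligands were at the bottom of the tables. IGF1 and INS were listed at 0 counts in all 9 libraries, and IGF2 was at 0 to 0.23 TPM. These genes share 82.4%, 31.7% and 72.1% of their exon bases with other genes, so their reads could have been left uncounted, and their absence cannot be read from these counts. IGF2R, the receptor that clears IGF2 and sorts lysosomal enzymes, was at 100.3 to 127.6 TPM and above IGF1R in each library, 3.67 to 5.91 times. Its log2 fold change was -0.12 with EMX1-FL and 0.10 with EMX1-X1.

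Of 51 other genes of the pathway 43 were tested, and with EMX1-X1 2 of them were called higher, IGFALS and SOCS3, 0 lower, beside 2.5% of all genes tested. With EMX1-FL 0 were called in either direction, beside 2.42%, and 0 between the isoforms, beside 1.42%. The median log2 fold change of these genes was 0.05 with EMX1-FL and 0.09 with EMX1-X1, beside 0.04 and 0.01 over all genes tested, and that of the 9 members was 0.01 and 0.29. Between EMX1-FL and EMX1-X1 it was -0.15 for the pathway genes and -0.41 for the members, beside 0.02 over all genes tested. With EMX1-X1 the member median was the value of IGFBP4, and between the isoforms that of IGFBP2, genes that varied with the cluster. EMX1-X1 has 2 libraries in cluster B, and EMX1-FL and the vector control have 1 each. With a GC offset the value of IGFBP4 was -0.15 and that of IGFBP2 was -0.11. IGFALS, which holds IGFs with IGFBP3 or IGFBP5 in the ternary complex of serum, had a log2 fold change of 1.73 with EMX1-X1 (SE 0.68, edgeR adjusted p 0.575). It was at 0.11 to 0.34 TPM in the vector control, from 5, 4 and 2 counts, and at 0.40 to 1.40 TPM with EMX1-X1, from 6, 11 and 22 counts. Within cluster A the EMX1-X1 difference was 0.26 in mean log2 CPM, from 1 EMX1-X1 library. In cluster B it was 2.12, from vector control 3 alone. With EMX1-FL, at 13, 11 and 5 counts, the log2 fold change of IGFALS was 1.41 (SE 0.69, edgeR unadjusted p 0.0655). SOCS3, a suppressor of cytokine and insulin receptor signalling, was at 17.1 to 19.8 TPM in the vector control and at 23.7, 52.9 and 45.3 TPM with EMX1-X1, a log2 fold change of 1.04 (SE 0.35, edgeR adjusted p 0.536). The higher EMX1-X1 libraries of SOCS3 were those of cluster B, and EMX1-FL 1, also of cluster B, held 37.8 TPM against 15.2 and 20.1 TPM in the other EMX1-FL libraries.

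IRS2, the substrate that shares the receptors with IRS1 and is prominent in liver, was at 6.94 to 8.11 TPM in the vector control, at 7.34, 7.10 and 10.2 TPM with EMX1-FL and at 9.08, 14.7 and 15.3 TPM with EMX1-X1. Its log2 fold change was 0.73 with EMX1-X1 (SE 0.23, edgeR unadjusted p 0.00791, adjusted p 0.505), and it was -0.67 with EMX1-FL against EMX1-X1 (edgeR unadjusted p 0.0129, adjusted p 0.611), below the fold change threshold in both. IRS1 was above IRS2 in all 9 libraries, 3.64 to 9.69 times in TPM. At an unadjusted p under 0.05, the counts in the lists that follow stand beside 5.8% of all genes tested with EMX1-FL, 8.11% with EMX1-X1 and 7.63% between the isoforms. Among the 12 adaptors and substrates next to the receptors, of which 11 were tested, an unadjusted p under 0.05 was reached by 1 gene with EMX1-FL (higher), by 2 with EMX1-X1 (1 higher, 1 lower) and by 4 between the isoforms (1 higher and 3 lower with EMX1-FL). In the PI3K-AKT-FOXO branch of 20 genes, with 19 tested, 1 gene was lower with EMX1-FL, 1 was higher with EMX1-X1 and 2 were lower with EMX1-FL than with EMX1-X1, all at an unadjusted p and below the fold change threshold. Of the 7 brakes on receptor signalling all were tested, and besides SOCS3 with EMX1-X1 1 gene was higher and 1 lower between the isoforms at an unadjusted p under 0.05. Of the 7 genes of the ternary complex and of IGFBP cleavage 5 were tested, and IGFALS with EMX1-X1 was the 1 gene with an unadjusted p under 0.05 in any comparison.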

How the data were processed

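The RNA-seq libraries were grouped by the sample labels, 3 each for the vector control, EMX1-FL and EMX1-X1. The deposited count table of the authors holds whole, unnormalized read-pair counts by gene name, made per the file headers with featureCounts 2.0.1 from STAR alignments on Ensembl release 99 of GRCh38, whereas the labels name version 2.0.6 and the methods name RSEM. The deposited log2 values are log2(TPM + 1), which a recomputation from counts and the deposited lengths (bases) matched within 5e-06. TPM was taken back from them. The 10 members and the gene lists were chosen with earlier results of these data known.

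Of 60642 gene names, 18574 passed filterByExpr in edgeR 4.0.16 (R 4.3.3) and were tested with TMM normalization and the quasi-likelihood F test, with 9 libraries, group as the term and Benjamini-Hochberg adjustment in each comparison. A DEG changed by 1 or more on the log2 scale, up or down, at an unadjusted p under 0.05, as in the study. The same model on counts drawn with known changes found 57.8% of genes with a true log2 change of 1 and 100% where it was 2, for EMX1-FL against vector control. It also called 1.23% of the genes drawn with no change. The draw did not part the libraries into clusters. The two-sided exact permutation test used log2 CPM with a prior count of 2. Total counts of 21562703 to 25197970 set the precision. All 10 members, EMX1, the ligands, IGF2R, IRS2, listed genes past the threshold, markers and the 5 genes most like the member with the smallest p were named. Alternatives were other scalings, DESeq2 1.42.0, limma 3.58.1 with a pseudocount of 1 or 0.1 TPM, other filters, the replicate block, the cluster as a term, a GC offset, each library left out and, added after the data were seen, cluster A libraries alone. GC content is from GENCODE release 29 transcripts and covers 95.6% of the genes tested. Python 3.11.15 with pandas 2.3.3, scipy 1.17.1 and matplotlib 3.10.9 was used for tables and plots.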

Additional observations from a re-analysis of the deposited data

Results flagged for a closer look

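IGFBP4 differed between the isoforms, with a log2 fold change of -0.63 with EMX1-FL against EMX1-X1 (edgeR unadjusted p 0.0391, adjusted p 0.611), and the 2 groups overlapped. INSR differed in the same way, by -0.49 (edgeR unadjusted p 0.0330, adjusted p 0.611), and all 3 EMX1-FL libraries were below all 3 EMX1-X1 libraries. Both differences stand at an unadjusted p, beside 7.63% of all genes tested. The unadjusted p of both was above 0.05 in a fit of only the 6 libraries compared (edgeR, 0.0649 for IGFBP4 and 0.0610 for INSR) and with a GC offset (edgeR, 0.0893 and 0.0567).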

How the results depend on the processing

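The number of members called with EMX1-FL was 1, and it was 0 with limma on log2(TPM + 1), with 10 counts required in every library, which left 6 members and dropped IGFBP3, and at an adjusted p, and 2 at an unadjusted p with no fold change threshold. With EMX1-X1 it was 1, and it was 0 with limma on log2(TPM + 1), with that filter, with cluster A libraries only and at an adjusted p, and 2 with no filter beyond 1 count in total, in a fit of only the 6 libraries compared and at an unadjusted p alone. Leaving out each library in turn gave 0 to 2 members with EMX1-X1, 1 in every case with EMX1-FL, and 0 to 1 between the isoforms, where an unadjusted p alone gave 2. The log2 fold change of IGFBP3 with limma on log2(TPM + 1) was 0.87 with EMX1-FL and 0.51 with EMX1-X1.

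The direction changed for members whose interval held 0. With EMX1-FL against vector control it became, with cluster A libraries only, -0.078 for IGFBP2, 0.075 for IGF1R and -0.36 for IRS1, with limma on log2(TPM + 1) and log2(TPM + 0.1) 0.035 and 0.036 for IGF1R, and for IRS1 -0.0090 with RLE factors, -0.0090 with DESeq2, -0.0024 with no filter, -0.025 with the replicate block, -0.054 with the cluster as a term and -0.022 with the GC offset. With EMX1-X1 it became -0.052 for IGFBP2 and -0.18 for IGFBP4 with cluster A libraries only, -0.15 for IGFBP4 and -0.0092 for IGFBP5 with the GC offset, and -0.019 for IGFBP5 with the replicate block. Leaving out each library in turn gave ranges of -0.22 to 0.34 for IGFBP2, -0.72 to 0.24 for IGFBP5, -0.18 to 1.06 for IGFBP6, -0.18 to 0.063 for IGF1R and -0.37 to 0.19 for IRS1 with EMX1-FL, -0.55 to 0.66 for IGFBP5 with EMX1-X1, and -0.87 to 0.27 for IGFBP5 and -0.018 to 0.17 for IGFBP7 between the isoforms. The cause of these changes was not tested. IGFBP3 and IGFBP7 kept their direction against the vector control in every alternative that tested them.

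The replicate block is not supported by the labels, and the residuals of libraries with the same number had a mean correlation of -0.13, from -0.52 to 0.29. Under it the calls were 1, 1 and 0 members in the 3 comparisons, as without it, while the edgeR unadjusted p of IGFBP4 with EMX1-FL against EMX1-X1 went from 0.0391 to 0.0880. Members under 20 counts in some library, IGFBP3, IGFBP5 and IGFBP6, are limited by depth.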

Other observations

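The other marker lists gave the following levels. The 6 mesenchymal markers summed to 1028 to 1287 TPM in the vector control, 1217 to 1387 TPM with EMX1-FL and 1154 to 1339 TPM with EMX1-X1. CDH2, the N-cadherin, had a log2 fold change of 0.58 with EMX1-FL (edgeR unadjusted p 0.0206, adjusted p 0.700) and 0.48 with EMX1-X1 (unadjusted p 0.0463, adjusted p 0.609). ZEB1, a repressor of epithelial genes, was called with EMX1-FL at a log2 fold change of 1.22 (edgeR adjusted p 0.837), with 0.28, 1.27 and 1.28 TPM in EMX1-FL 1, 2 and 3 against 0.20 to 0.63 TPM in the vector control. It was the 1 of 6 mesenchymal markers called with EMX1-FL, beside 2.42% of all genes tested, and 0 were called with EMX1-X1. At an unadjusted p under 0.05 alone 3 of the 6, CDH2, FN1 and ZEB1, were higher with EMX1-FL, beside 5.8% of all genes tested. CDH2 and FN1 were the 2 higher with EMX1-X1, beside 8.11%. VIM had log2 fold changes of 0.08 with EMX1-FL and -0.23 with EMX1-X1, neither with an edgeR unadjusted p under 0.05. The 5 epithelial markers summed to 4.52 to 7.44 TPM in the vector control. They summed to 6.57 to 9.85 TPM with EMX1-FL and 6.40 to 9.97 TPM with EMX1-X1. CDH1, the E-cadherin, had a log2 fold change of 0.75 with EMX1-X1 (edgeR unadjusted p 0.0352, adjusted p 0.584). EPCAM had 0.55 with EMX1-FL (edgeR unadjusted p 0.0696, adjusted p 0.922).

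ALB was called with EMX1-FL at a log2 fold change of 1.46 (edgeR adjusted p 0.467) and with EMX1-X1 at 1.11 (edgeR adjusted p 0.576), from 0.45 to 0.71 TPM in the vector control to 1.04 to 2.77 TPM and 0.91 to 1.75 TPM. Of the 10 hepatocyte markers it was the 1 tested, and 2.42% and 2.5% of all genes tested were called in these comparisons. The 5 blood cell markers summed to 0 to 3.60 TPM over all libraries. The 8 endothelial and stellate cell markers summed to 28.6 to 36.7 TPM in the vector control, 31.0 to 49.0 TPM with EMX1-FL and 21.9 to 33.7 TPM with EMX1-X1, and 7 of them stayed under 1 TPM in every library. The 4 cortical neuron markers were of interest because EMX1 patterns the cortex. They summed to 27.1 to 37.4 TPM, 20.5 to 34.3 TPM and 29.9 to 39.4 TPM in the 3 groups. Of these markers 2 stayed under 1 TPM in every library, 1 of them at 0 throughout, so the sums came almost wholly from the other 2. The part of cells of another type in the values of IGFBP3 and IGFBP7 was not tested.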
